A study of Vitis vinifera with 15 samples.

Results

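In the skin of ripening table grapes, 169 genes had lower transcript levels in Shine muscat and Summer Black than in Midknight Beauty, Centennial Seedless and Victoria. The members were chosen from the measured values by a fixed rule on fragments per kilobase of transcript and per 1e6 mapped fragments (FPKM). A member had at least 1 FPKM in at least 3 of the 15 libraries, its highest value among the 6 libraries of Shine muscat and Summer Black lay below its lowest value among the 9 libraries of the other cultivars, and the means of log2(FPKM + 1) differed by at least 1. The table held 31924 genes, of which 18238 passed the filter on low values and 169 met the whole rule. The difference between the 6 and the 9 libraries is therefore a description of how the genes were picked, and no test of it was made. Values are FPKM unless a log2 scale is named.

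The study compared 5 table grape cultivars that differ in the aroma of the ripe berry, with 3 skin libraries per cultivar at the ripening stage and no treatment. Shine muscat is a green grape with muscat aroma and Summer Black is a dark grape with strawberry aroma. The other 3 are Midknight Beauty (dark, muscat aroma; Midnight Beauty in the paper), Centennial Seedless (green, muscat aroma) and Victoria (green, neutral). The members thus follow neither aroma nor skin colour as the groups are labelled, since each side of the rule holds a muscat grape, a green grape and a dark grape. Each cultivar is a single clonally propagated genotype, and the paper describes the 3 libraries as biological replicates from a single vineyard. p-values measure the spread between these libraries. The labels give the 3 libraries of a cultivar as replicates of one stage, whereas the methods section gives the numbers to 3 growth periods.

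Shine muscat and Summer Black are hybrids with ancestors from the American fox grape Vitis labrusca, and Summer Black is triploid. Centennial Seedless and Victoria are bred as Vitis vinifera, the European wine and table grape, though the paper calls Centennial Seedless a hybrid without naming its parents. The ancestry of Midknight Beauty is not given here, so ancestry is not shown to split as the rule does. Reads of all cultivars were mapped to a Vitis vinifera reference. In a hybrid, a gene copy from another species can be transcribed less, can be missing, or can have a sequence that maps less well to the reference. A low value in this table cannot tell these apart. The skin is a mixture of epidermal and underlying cells, and in bulk RNA fewer cells of a type and less RNA per cell cannot be told apart either.

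The gene identifiers name the place of a gene in the reference annotation, with a chromosome field, a scaffold field and a position along the scaffold. Roles were found for 20 of the identifiers in the table, and the reference list of grape genes used here held none of the identifiers. Roles are therefore given for these, and the other members are described by identifier, level and place. For the same reason the skin label could not be checked against marker genes. Of the 169 members, 159 had a reference identifier and 10 were newly assembled by the authors, which is 5.92% of the members and compares with 4.08% of all genes tested.

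The libraries summed to 718652 to 786207 FPKM, and 9440 to 10976 of the 31924 genes were listed at 0 in a library. FPKM do not give read numbers per gene, so the number of reads behind a single value is unknown and no counting interval was computed. Mapped reads differ between libraries by the sequencing summary of the paper. There every library of Shine muscat and Summer Black has a lower mapped share than every library of the other cultivars. The same holds for uniquely mapped reads, so the mapped share separates the sides as the rule does. Shine muscat replicate 1 and Summer Black replicate 3 have the lowest mapped shares. Without both of these libraries 226 genes met the rule, 165 of the 169 among them. Leaving them out does not remove the difference in mapped share between the sides, and its part in the low values was not tested.

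MYB proteins are one of the largest families of plant transcription factors, and the grape berry uses members of the R2R3 class to switch on pigment and other secondary pathways. Terpene synthases and the plastid methylerythritol phosphate pathway supply the monoterpenes of muscat aroma, while esters and phenylpropanoid volatiles mark other aroma types. Of the 20 genes with such a role, 1 was a member, the MYB transcription factor VIT_03s0063g02620. The gene was also measured by quantitative PCR. The primer pair is shown as the paper lists it for this gene, and its match to the transcript was not checked. Both primers are written 5′ to 3′ in lower case throughout, and each has 20 bases.
VIT_03s0063g02620 forward: tctggctcatcctggactgc
VIT_03s0063g02620 reverse: ttcacttcctccacggtttt

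VIT_03s0063g02620 stood at 1.58, 1.25 and 1.34 FPKM in Shine muscat and at 0.105, 0.138 and 0 in Summer Black. It was at 4.36, 2.51 and 3.81 FPKM in Midknight Beauty and at 7.63, 2.30 and 3.19 in Centennial Seedless. The Victoria libraries held 4.68, 86.3 and 19.2 FPKM, the widest spread of the 5 cultivars, so that the mean of 36.7 ± 43.5 (SD, n = 3) rested largely on 1 library. The mean log2 difference of 2.28 fell to 1.85 without that library and to 1.55 without the 3 Victoria libraries. Within each side of the rule no difference of this gene passed the test. Midknight Beauty lay 2.26 below Victoria on the log2 scale (SE 0.69), with a Benjamini-Hochberg adjusted p of 0.0681 in limma, and Summer Black lay 1.14 below Shine muscat, with an adjusted p of 0.257. Of the other 19 aroma genes none met the rule, and 6 of the 20 had a lower mean log2(FPKM + 1) in the 6 libraries. The median difference over the 20 was -0.69, against -0.04 over all genes tested, so most of these genes had the higher mean in Shine muscat and Summer Black. The paper picked the 20 from these same libraries by comparing aromatic grapes with Victoria, which lies on the high side of the rule. Some rest on 1 cultivar, such as VIT_13s0067g00380 (means of 0 FPKM in Shine muscat and 16.3 in Summer Black) and VIT_00s0271g00010 (28.7 and 0). Nothing is read from the shift for these reasons.

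VIT_12s0035g00010 is the other member whose identifier appears in the supplement of the paper, which gives it no role. It stood at 3.95, 1.59 and 2.19 FPKM in Shine muscat, at 0.744, 1.85 and 2.26 in Summer Black, at 6.15, 5.29 and 12.4 in Midknight Beauty, at 5.93, 4.41 and 6.93 in Centennial Seedless, and at 13.8, 27.4 and 36.9 in Victoria. Victoria was again highest, and its lowest library lay above the highest of the other cultivars. The log2 difference of Centennial Seedless from Victoria was -1.91 (SE 0.39, adjusted p 0.00727 by limma), which missed the threshold of 0.005 used for calls.

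**Figure D1:**
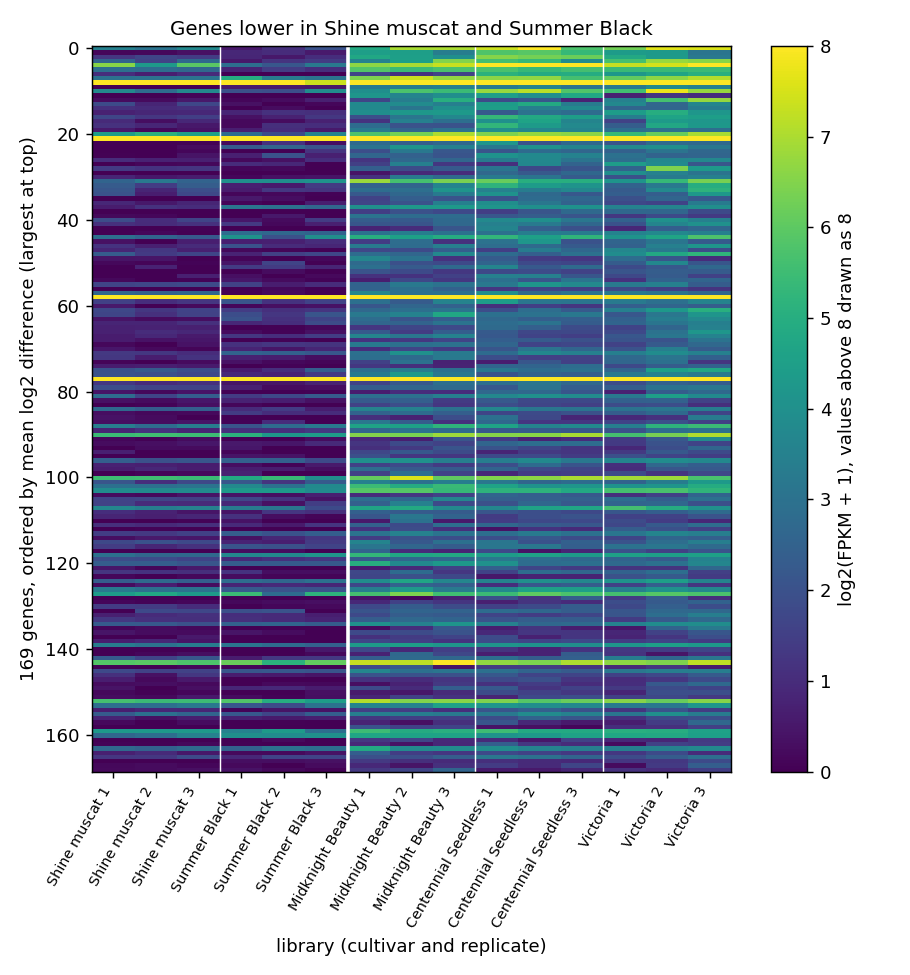
Heat map of log2(FPKM + 1) for the 169 genes (rows, ordered by the mean log2 difference of the rule) in the 15 libraries (columns, 3 per cultivar), with values above 8 drawn as 8. The thick line separates the 6 libraries of Shine muscat and Summer Black from the other 9, and the rows that are bright across all columns are the few very abundant members.

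The members ranged from barely detected to among the most abundant transcripts of the skin. Their mean over the 9 libraries ran from 1.21 to 21405 FPKM with a median of 5.92, and 78 of the 169 had a mean under 5 FPKM, 83 a mean from 5 to 100 and 8 a mean of at least 100. In the 6 libraries of Shine muscat and Summer Black the median of the means was 0.764 FPKM, and 97 members had a mean under 1 FPKM. In 65 members no library of Shine muscat or Summer Black reached 1 FPKM, so these passed the filter through the 9 other libraries alone, and 78 reached 1 FPKM in at least 3 of the 6. The mean log2 difference had a median of 1.54, quartiles of 1.29 and 1.98 and a highest value of 4.51, with 41 members at 2 or more and 13 at 3 or more. The 169 belonged to the 264 genes tested, or 1.45%, whose 6 low libraries lay below the 9 others by any margin, a share that the rule used. The mirrored rule, for genes higher in Shine muscat and Summer Black, found 124 genes. By any margin, 391 of the 18238 genes tested lay higher in those 6 libraries than in the 9, against the 264 that lay lower. The order of the sides thus turned with the threshold, and nothing is read from it. The same rule for Summer Black and Midknight Beauty, the dark grapes, found 48 of the genes tested.

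The gap between the 2 sides was often narrow. The lowest of the 9 libraries was a median of 1.37 times the highest of the 6, and it was at least 2 times as high in 37 members. The last members inside the threshold were VIT_06s0004g02390, with a log2 difference of 1.0007, and VIT_06s0080g00780, with 1.0083. Just outside lay VIT_18s0001g04880, with 0.9848, and VIT_13s0106g00370, with 0.9745. VIT_13s0106g00370 had a wider gap (a highest low value of 1.31 FPKM and a lowest high value of 2.44) than VIT_06s0080g00780 (0.167 and 0.180), so the boundary does not rank genes by how clearly the cultivars separate.

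The largest difference was that of VIT_03s0088g00710, on chromosome 3 by its identifier. It stood at 10.2, 7.21 and 12.3 FPKM in Shine muscat and at 0.461, 1.17 and 3.02 in Summer Black, against a lowest value of 28.0, a median of 126 and a highest value of 282 in the 9 other libraries. The mean was 23.9 times as high in the 9 libraries as in the 6 (137 and 5.73 FPKM). The gene spread widely within a cultivar, with Midknight Beauty alone running from 28.0 to 126 FPKM. Its neighbour VIT_03s0088g00700, named after its values were seen, was a member too, with at most 0.638 FPKM in the 6 libraries and 0.708 to 106 FPKM in the 9.

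VIT_07s0095g00550 and VIT_03s0038g03130 shared a pattern in which Centennial Seedless stood above the other 2 high cultivars. VIT_07s0095g00550 was at 54.6, 59.0 and 39.8 FPKM in Centennial Seedless, at 21.4, 21.2 and 9.39 in Midknight Beauty and at 20.03, 18.8 and 7.72 in Victoria, and its highest low library held 1.00 FPKM. VIT_03s0038g03130 was at 92.3, 79.4 and 73.3 FPKM in Centennial Seedless, at 26.1, 21.9 and 14.7 in Midknight Beauty and at 27.4, 19.7 and 8.36 in Victoria, with at most 2.19 in the 6 low libraries. For both genes the Centennial Seedless libraries lay above the 6 libraries of the other high cultivars. The difference from Victoria was called for VIT_03s0038g03130 (log2 2.22, SE 0.33, adjusted p 0.000785 by limma) and missed the threshold for VIT_07s0095g00550 (log2 1.74, SE 0.35, adjusted p 0.00595).

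VIT_08s0007g01030 and VIT_13s0156g00460 had even levels across the 3 high cultivars. VIT_08s0007g01030 ran from 40.3 to 55.5 FPKM over the 9 libraries, with 41.5, 42.1 and 42.9 in Victoria. It was at 6.53, 6.04 and 5.55 FPKM in Shine muscat and at 0.750, 1.69 and 1.07 in Summer Black, so the low cultivars also separated from each other. VIT_13s0156g00460 ran from 7.25 to 12.7 FPKM over the 9 libraries and was listed at 0 in the 3 Shine muscat libraries and at 0.488, 0.507 and 0.429 in Summer Black.

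VIT_18s0166g00260 and VIT_16s0098g00860 separated the 2 sides with more spread. VIT_18s0166g00260 was at 4.85, 1.96 and 5.63 FPKM in Shine muscat and at 0.441, 1.31 and 1.63 in Summer Black, and ran from 10.7 to 109 FPKM over the 9 libraries. VIT_16s0098g00860 was at 6.96, 7.13 and 7.48 FPKM in Shine muscat and at 30.1, 9.09 and 7.20 in Summer Black, and ran from 49.1 to 161 FPKM over the 9. A single Summer Black library thus stood well above the other 5 low libraries while still below the 9. VIT_05s0049g00550 was at 95.1, 18.5 and 60.9 FPKM in Shine muscat, close to the lowest of the 9 other libraries at 99.2, and at 6.39, 3.52 and 8.44 in Summer Black, with a highest value of 665 in Centennial Seedless.

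**Figure D2:**
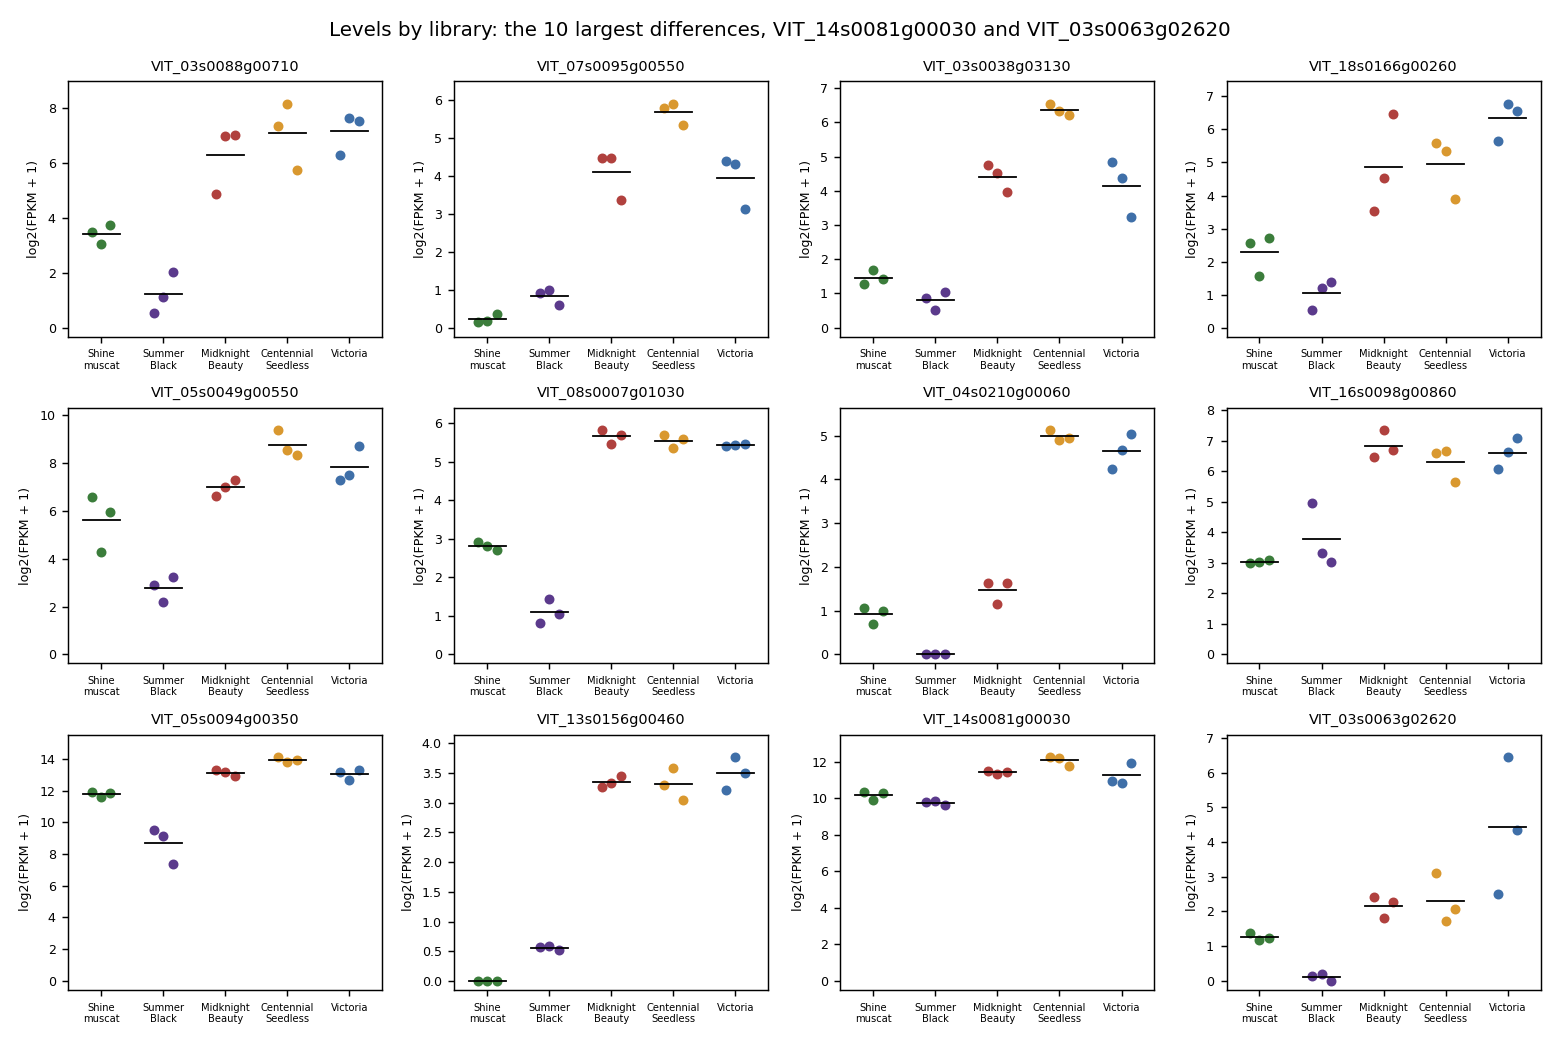
Levels of the 10 members with the largest differences, of VIT_14s0081g00030 and of VIT_03s0063g02620 on the log2(FPKM + 1) scale (vertical axes start near 0 and differ between panels). Points are the 3 libraries of a cultivar and bars their mean, and the panels show both even high levels, as in VIT_08s0007g01030, and a Midknight Beauty level near the low cultivars, as in VIT_04s0210g00060.

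The abundant members were dominated by neighbouring genes on chromosome 5. VIT_05s0094g00340 was at 5947, 6213 and 5720 FPKM in Shine muscat and at 8866, 4111 and 5524 in Summer Black, and ran from 11014 to 28978 FPKM over the 9 other libraries. VIT_05s0094g00350 was at 3836, 3155 and 3727 FPKM in Shine muscat, at 723, 563 and 164 in Summer Black, and at 6610 to 17770 in the 9. VIT_05s0094g00330 was at 356, 352 and 360 FPKM in Shine muscat, at 598, 286 and 386 in Summer Black, and at 1211 to 2999.9 in the 9. In the low cultivars these genes were thus below the other cultivars, and still far above the median member.

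The other gene of the row, VIT_05s0094g00320, was rare, with at most 0.409 FPKM in the 6 libraries and 0.865 to 5.19 in the 9. The 4 loci follow each other in the annotation without a gap, and all 4 were members. The loci that flank them in the table were not members, with VIT_05s0094g00300 at 9.21 to 49.9 FPKM in the 6 libraries and 22.2 to 47.1 in the 9, and VIT_05s0094g00360 at 3.58 to 64.5 and 10.1 to 46.1. Together the 4 loci made up 0.669% to 1.36% of all FPKM in a low library and 2.62% to 6.11% in a high one. The other 165 members made up 0.167% to 0.253% and 0.499% to 1.04%.

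Neighbouring genes on this row did not fall by the same factor. VIT_05s0094g00340 was 14.3 to 17.7 times as high as VIT_05s0094g00330 in the 6 low libraries and 8.30 to 10.8 times as high in the 9, without overlap. The deviations of these genes from their cultivar means had a Pearson's r of 0.99 over the 15 libraries, a description of values that share libraries. VIT_05s0094g00350 was called lower in Summer Black than in Shine muscat, by 3.13 on the log2 scale (SE 0.42, adjusted p 0.000135 by limma), while the differences of VIT_05s0094g00340 (-0.02) and VIT_05s0094g00330 (0.18) were smaller than their SE of 0.36 and 0.31. Whether these loci are near-identical copies that share reads was not tested, and their separate levels are uncertain to that extent.

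The remaining members with high levels had smaller fold differences. VIT_14s0081g00030 was at 1315, 947 and 1238 FPKM in Shine muscat, at 902, 936 and 790 in Summer Black, and at 1871 to 4933 in the 9 other libraries, a ratio of means of 3.19. VIT_16s0050g01250, VIT_01s0010g01200 and VIT_08s0007g05790 had means of 136, 101 and 95.2 FPKM over the 9 libraries and were 2.37, 2.79 and 2.79 times as high there as in the 6. For VIT_08s0007g05790 the highest low library (45.9 FPKM, Shine muscat) and the lowest high one (49.3 FPKM, Victoria) were close.

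At the other end, 4 members were listed at 0 in all 6 libraries of Shine muscat and Summer Black. VIT_15s0046g03430 was at 0.341, 0.892 and 1.03 FPKM in Midknight Beauty, at 5.53, 3.75 and 5.37 in Centennial Seedless and at 14.6, 10.5 and 7.41 in Victoria, a graded order in which no cultivar overlapped the next. VIT_12s0178g00160 ran from 1.71 to 5.65 FPKM over the 9 libraries, VIT_05s0020g01070 from 0.0929 to 4.10 and VIT_14s0083g00420 from 0.102 to 3.16. These levels are low, and with no read counts in the table the number of reads that a value listed at 0 could have missed is unknown. A fold is not given for that reason. The mirrored set held 11 genes listed at 0 in the whole of its lower side, the 9 libraries.

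Each low cultivar also had its own zeros. Of the 169 members, 13 were listed at 0 in the 3 Shine muscat libraries and 13 in the 3 Summer Black libraries (255 and 166 of the 18238 genes tested), and beside the 4 shared genes 9 were at 0 in Shine muscat alone and 9 in Summer Black alone. The rule picked genes that are low in these libraries, so nothing is read from the number of zeros. In all, 97 members had their lowest mean in Summer Black and 68 in Shine muscat, and the 4 shared genes were tied at 0. Over all genes tested the median log2 difference of Summer Black from Shine muscat was -0.13. On the upper side, the highest mean was in Victoria for 61 members, in Centennial Seedless for 58 and in Midknight Beauty for 50, while over all genes tested the highest of these 3 means was in Victoria for 5654, in Centennial Seedless for 6602 and in Midknight Beauty for 5982.

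Differences between cultivars within a side of the rule were not used to choose the members and were tested. The rule did use the levels in these libraries, which limits how the shares of members compare with those of all genes. All 5 cultivars entered 1 limma fit of log2(FPKM + 1) over the 18238 genes, and a gene was called when its absolute log2 fold change reached 1 and its adjusted p was under 0.005. In total 28 members (16.6%, against 13.7% of all genes tested) were called in at least 1 of the 4 comparisons made, 10 of them (5.92%, against 3.91%) in 2 or more, and 141 in none. Of the 28, 11 were called between the low cultivars and 17 among the high cultivars, with 0 members called in both, where 1.93% of all genes tested (352) were.

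Between the low cultivars, 11 of 169 members (6.51%) were called in Summer Black against Shine muscat, where 9.84% of all genes tested were. Higher in Summer Black were 4 members (2.37%, against 2.93% of all genes) and lower 7 (4.14%, against 6.90% of all genes). The 65 members that did not reach 1 FPKM in any of these 6 libraries could not reach a log2 difference of 1 on this scale, so nothing is read from the lower share. Among genes that did reach 1 FPKM there, 11 of 104 members (10.6%) and 10.2% of 17663 genes were called. With a pseudocount of 0.1 in place of 1 the count of members became 27 (16.0%, against 10.9% of all genes), and without Shine muscat replicate 1 and Summer Black replicate 3 it was 7 (4.14%, against 4.82%). The median log2 difference was -0.05 over the members and -0.13 over all genes tested. Median-of-ratios scaling moved the latter to 0.01, and under quantile normalization the split of called members was 9 higher (5.33%, against 3.84% of all genes) and 5 lower (2.96%, against 5.03%), while that of all called genes went from 29.8% to 43.3% higher.

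The members called lower in Summer Black included VIT_05s0094g00350 and VIT_05s0049g00550, whose libraries are given above. VIT_05s0049g00550 fell by 2.84 (SE 0.53, adjusted p 0.00163 by limma), and the call was lost, at an adjusted p of 0.00799 to 0.00986, when Shine muscat replicate 1, Shine muscat replicate 3 or Summer Black replicate 2 was left out. VIT_12s0055g00810 was at 5.19, 4.59 and 5.15 FPKM in Shine muscat and at 0, 0.142 and 0 in Summer Black, a log2 difference of -2.51 (SE 0.29, adjusted p 3.42e-05). Its Shine muscat level lay just under the lowest high library, at 5.37 FPKM in Victoria, so this gene separated Summer Black from the other 4 cultivars more than it separated the sides. VIT_08s0007g01030 was lower in Summer Black by 1.72 (SE 0.16, adjusted p 6.57e-06).

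Of the 4 members called higher in Summer Black, 3 were near or at 0 in Shine muscat. The newly assembled gene Vitis_vinifera_newGene_593 was at 0, 0.0987 and 0 FPKM in Shine muscat, at 6.21, 5.33 and 4.67 in Summer Black and at 6.70 to 12.2 in the 9 other libraries, a log2 difference of 2.63 (SE 0.17, adjusted p 2.97e-07 by limma). VIT_11s0065g00650 was at 0, 0 and 0.187 FPKM in Shine muscat, at 3.97, 5.20 and 3.36 in Summer Black and at 7.41 to 16.6 in the 9 (log2 difference 2.27, SE 0.30). Vitis_vinifera_newGene_1366 was at 0.534, 1.2 and 1.02 FPKM in Shine muscat, at 7.83, 6.85 and 5.30 in Summer Black and at 10.6 to 19.1 in the 9 (log2 difference 2.0, SE 0.18). The other, VIT_12s0059g01530, named after its values were seen, was at 6.82, 5.18 and 5.67 FPKM in Shine muscat, at 12.1, 12.9 and 16.6 in Summer Black and at 19.6 to 38.2 in the 9 (log2 difference 1.11, SE 0.16, adjusted p 0.000238).

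**Figure D3:**
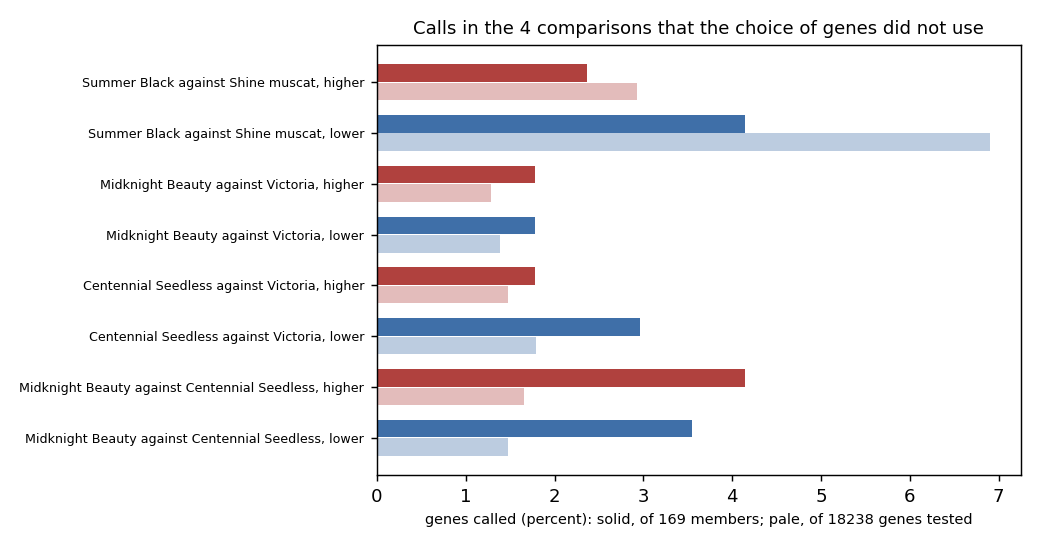
Percent of genes called (log2 fold change of at least 1 and adjusted p under 0.005, limma) in each direction of the 4 comparisons within a side of the rule. Solid bars are the 169 members and pale bars the 18238 genes tested, at a pseudocount of 1. For Summer Black against Shine muscat 6.51% of the members and 9.84% of all genes were called in either direction, an order that turned to 16.0% and 10.9% with a pseudocount of 0.1.

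Among the high cultivars, 6 members (3.55%) were called in Midknight Beauty against Victoria, where 2.66% of all genes tested were, with 3 higher (against 1.28% of all genes) and 3 lower (against 1.38%). In Centennial Seedless against Victoria 8 members (4.73%) were called, where 3.27% of all genes were, with 3 higher (against 1.48%) and 5 lower (against 1.79%). In Midknight Beauty against Centennial Seedless 13 members (7.69%) were called, where 3.14% of all genes were, with 7 higher (against 1.66%) and 6 lower (against 1.48%). These comparisons share cultivars and are not independent of each other. The rule picked members by their levels in these libraries, and no share was computed for other genes of like level. Nothing is read from the higher shares for that reason. The median absolute log2 difference was 0.39, 0.36 and 0.49 over the members and 0.24, 0.21 and 0.25 over all genes. The median SE was larger over the members too, 0.31 against 0.22 in each comparison, so nothing is read from the larger differences. The counts rest on few members. With a pseudocount of 0.1 the 3 counts were 3, 7 and 5 (1.78%, 4.14% and 2.96%, against 2.98%, 3.43% and 3.53% of all genes), so that the first and the last fell below the share of all genes. Without Victoria replicate 1 the 6 calls became 12 (7.10%, against 2.36% of all genes). The 8 calls became 12 without the same library (7.10%, against 2.51%), 3 without Centennial Seedless replicate 1 (1.78%, against 2.56%), and 4 without Centennial Seedless replicate 3 or Victoria replicate 2 (2.37%, against 2.45% and 2.37%). The 13 calls became 6 or 5 without Midknight Beauty replicate 2 or 3 (3.55% and 2.96%, against 2.52% and 2.33%), and 8 or 7 without Centennial Seedless replicate 2 or 3 (4.73% and 4.14%, against 2.11% and 2.12%).

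VIT_07s0005g03140 was low in Victoria as well as in Shine muscat and Summer Black. It was at 0.664, 1.39 and 1.08 FPKM in Victoria, at 17.4, 11.2 and 14.5 in Midknight Beauty and at 21.2, 14.5 and 25.9 in Centennial Seedless, with 5 of the 6 low libraries at 0 and the other at 0.0869. The log2 difference from Victoria was 2.91 in Midknight Beauty (SE 0.22, adjusted p 1.85e-06 by limma) and 3.38 in Centennial Seedless (adjusted p 5.26e-07). The same direction held for VIT_01s0010g03290, at 7.32, 6.11 and 6.13 FPKM in Midknight Beauty and 1.47, 2.46 and 1.58 in Victoria (log2 difference 1.42, SE 0.18, adjusted p 0.000264).

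Vitis_vinifera_newGene_250 was highest in Midknight Beauty, at 4.80, 6.54 and 4.59 FPKM, against 1.39, 2.07 and 1.79 in Centennial Seedless and 2.26, 1.83 and 1.28 in Victoria. It was called against both, with log2 differences of 1.18 and 1.19 (SE 0.17). VIT_14s0083g00420, listed at 0 in the 6 low libraries, was higher in Midknight Beauty than in Centennial Seedless by 1.44 (SE 0.17, adjusted p 0.000109), with 3.16, 1.90 and 2.02 against 0.328, 0.257 and 0.102 FPKM. VIT_07s0197g00150 was higher in Midknight Beauty as well, at 11.6, 7.55 and 10.7 FPKM against 3.63, 2.07 and 1.78 (log2 difference 1.66, adjusted p 0.00409), a call that was lost under 18 of 25 alternatives, among them leaving out any of 12 libraries, at an adjusted p of 0.00545 to 0.0231. With the replicate number as a block its adjusted p was 0.0086 over all cultivars and 0.00485 with the block for these 2 cultivars alone.

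Other members were highest in Victoria or lowest in Centennial Seedless. VIT_13s0156g00550 was at 3.84, 7.04 and 6.08 FPKM in Centennial Seedless, at 14.1, 18.4 and 19.1 in Midknight Beauty and at 20.6, 30.6 and 17.5 in Victoria. It was called against both cultivars, at -1.84 from Victoria (SE 0.23, adjusted p 0.000161 by limma) and with Midknight Beauty 1.47 above (adjusted p 0.00103, and 0.00553 or 0.00635 without Midknight Beauty replicate 2 or 3). VIT_18s0001g02760 was at 2.73, 6.24 and 3.84 FPKM in Centennial Seedless and at 10.2, 18.4 and 32.1 in Victoria (log2 difference -1.93, SE 0.33, adjusted p 0.00222). Without Centennial Seedless replicate 1 or 3 or Victoria replicate 2 or 3 its adjusted p was 0.00658 to 0.0125. VIT_16s0148g00040 was at 0.631, 1.28 and 0.994 FPKM against 2.74, 3.83 and 4.74 (log2 difference -1.27, SE 0.20, adjusted p 0.00102), and without any of the same 4 libraries its adjusted p was 0.00502 to 0.00632.

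The members with the opposite order were highest in Centennial Seedless. VIT_16s0098g01790 was at 5.13, 6.39 and 6.28 FPKM there, at 1.36, 2.47 and 1.98 in Midknight Beauty and at 1.55, 3.0 and 2.14 in Victoria, with a log2 difference of 1.12 from Victoria (SE 0.20, adjusted p 0.00317 by limma) that was lost under 13 of 24 alternatives, among them leaving out any of 9 libraries, at an adjusted p of 0.00522 to 0.0175 or a log2 difference of 0.96. VIT_12s0055g00920 was at 10.2, 10.2 and 3.38 FPKM in Centennial Seedless and at 1.19, 1.24 and 1.92 in Midknight Beauty (log2 difference -1.75, SE 0.34, adjusted p 0.00491). Its call was lost under 20 of 24 alternatives, among them leaving out any of 14 libraries, at an adjusted p of 0.00566 to 0.0271, and with the replicate block at 0.0105 over all cultivars and 0.00692 for these 2 alone. VIT_03s0038g03130, described above, was 1.95 lower in Midknight Beauty than in Centennial Seedless on the log2 scale (adjusted p 0.00218), a call that was lost without Midknight Beauty replicate 2 or 3 or any of the Centennial Seedless libraries, at an adjusted p of 0.00725 to 0.0126.

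The largest called difference among the high cultivars was that of VIT_04s0210g00060 on chromosome 4. Centennial Seedless held 33.7, 28.7 and 29.8 FPKM and Victoria 17.9, 24.6 and 32.0, whereas Midknight Beauty held 2.10, 1.24 and 2.08, little above the 1.07, 0.609 and 0.999 of Shine muscat. Summer Black was listed at 0 in its 3 libraries. Midknight Beauty fell by 3.18 below Victoria (SE 0.21, adjusted p 5.59e-07 by limma) and by 3.51 below Centennial Seedless (adjusted p 2.12e-07). By these values the gene separated Centennial Seedless and Victoria from the other 3 cultivars by more than it separated the sides of the rule.

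A similar order was seen in the neighbours of this gene. VIT_04s0210g00080 was at 1.46, 1.13 and 0.736 FPKM in Midknight Beauty, at 4.92, 4.96 and 6.07 in Centennial Seedless and at 2.37, 4.07 and 4.65 in Victoria, with log2 differences of -1.14 from Victoria (SE 0.19, adjusted p 0.00238 by limma) and -1.59 from Centennial Seedless (adjusted p 0.000149). The former call was lost without Midknight Beauty replicate 2 or 3 or Victoria replicate 2 or 3, at an adjusted p of 0.00898 to 0.0153. VIT_04s0210g00120 was at 1.25, 1.02 and 1.35 FPKM in Midknight Beauty, at 2.41, 2.91 and 1.37 in Centennial Seedless and at 1.02, 1.41 and 2.5 in Victoria, and neither of its differences was called. The 3 members span 7 loci, of which 4 passed the filter. The one tested locus between them that was not a member, VIT_04s0210g00110, had 0.734 to 2.75 FPKM in the 6 libraries and 1.86 to 5.89 in the 9, so the sides overlapped.

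The remaining runs of 3 members lay on chromosome 16 and on a scaffold without a chromosome. VIT_00s0388g00020 was at 0.520, 1.04 and 1.01 FPKM in Midknight Beauty, at 5.48, 5.58 and 3.35 in Centennial Seedless and at 0.678, 4.03 and 5.49 in Victoria, with at most 0.329 in the 6 low libraries. VIT_00s0388g00050 and VIT_00s0388g00090 were likewise lowest of the high cultivars in Midknight Beauty, with 1.07, 2.10 and 1.55 FPKM and 0.482, 0.391 and 0.932 FPKM, but no difference of the 3 genes between high cultivars was called. The tested loci between them that were not members, VIT_00s0388g00030 and VIT_00s0388g00060, held at most 0.925 and 0.0730 FPKM in the 6 libraries. In the 9 they held 0.511 to 1.36 and 0.0687 to 1.81 FPKM, so the sides overlapped. On chromosome 16, VIT_16s0039g02330 had at most 0.0620 FPKM in the 6 libraries and 0.311 to 4.13 in the 9, VIT_16s0039g02370 at most 1.29 and 2.80 to 8.22, and VIT_16s0039g02380 at most 1.44 and 2.93 to 6.96. The 2 tested loci between the first and the second, VIT_16s0039g02350 and VIT_16s0039g02360, were not members and reached 15.7 and 7.12 FPKM in the low libraries.

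**Figure D4:**
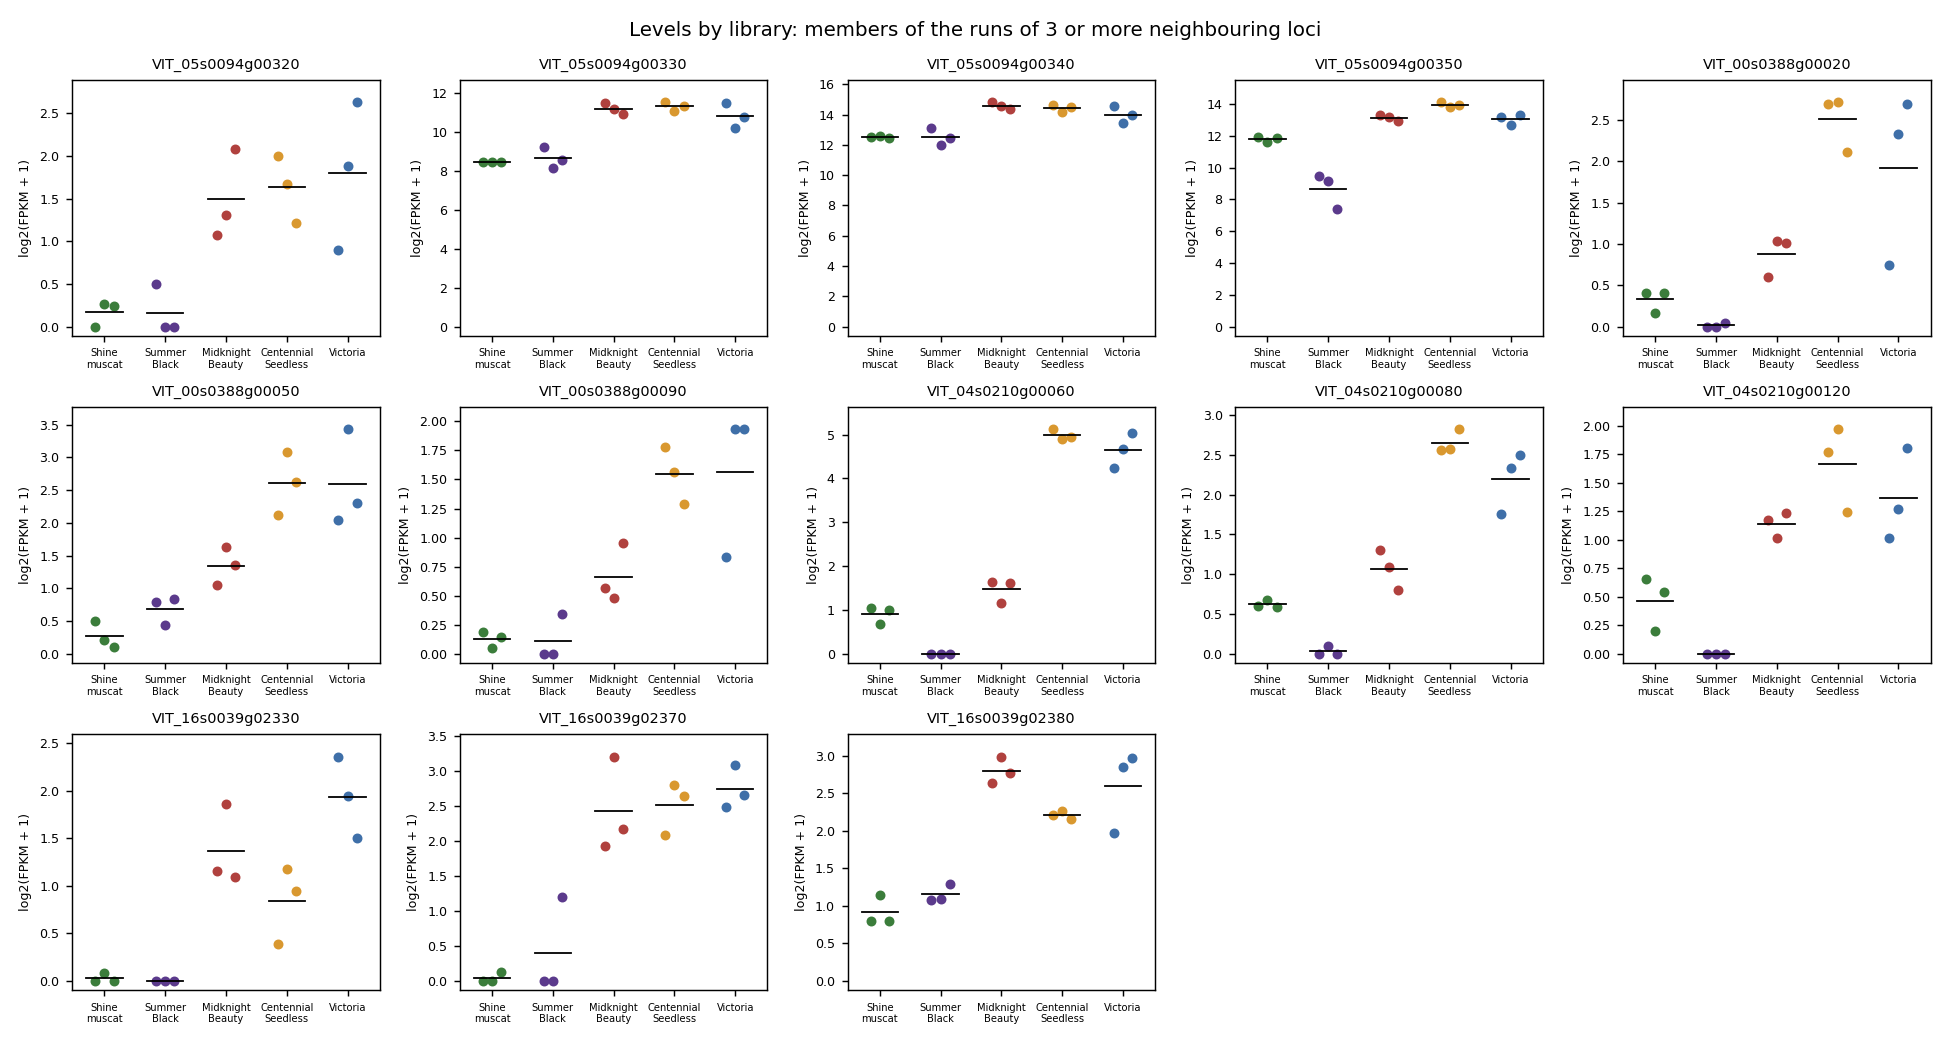
Levels of the 13 members that lie in the 4 runs of 3 or more neighbouring loci, on the log2(FPKM + 1) scale, with points for the 3 libraries of a cultivar and bars for their mean. The VIT_05s0094 genes differ by orders of magnitude in level, and the VIT_04s0210 and VIT_00s0388 genes have Midknight Beauty as the lowest of the 3 high cultivars.

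Neighbouring members were counted across the genome. A run was a series of members with at most 5 gene places from one to the next on a scaffold. Of the 159 members with a reference identifier, 33 (20.8%) lay in 14 runs of at least 2, and 4 of these runs held 3 or more. In the mirrored set of genes higher in Shine muscat and Summer Black the share was 18.9%, or 21 of 111. That set was picked by a like rule, and no such share was computed for other genes, so nothing is read from it. The deviations of 2 members of a run from their cultivar means had a median Pearson's r of 0.41 over 25 pairs, against 0.09 over all 14196 pairs of members, a description over 15 libraries that the pairs share. Chromosome 16 held 18 members of 685 genes tested (2.63%), the highest share of the chromosome fields, against 0.909% over all fields and 0.276% on chromosome 17, the lowest. Some of the 18 are neighbours in a run, such as VIT_16s0039g02330 and VIT_16s0039g02380. The field was singled out as the highest, so nothing is read from its share. VIT_16s0148g00030 and its neighbour VIT_16s0148g00040 were both called lower in Centennial Seedless than in Victoria, and the first of these and the neighbours VIT_09s0002g00250 and VIT_09s0002g00270 were called higher in Midknight Beauty than in Centennial Seedless. These 3 genes were named after their values were seen.

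**Figure D5:**
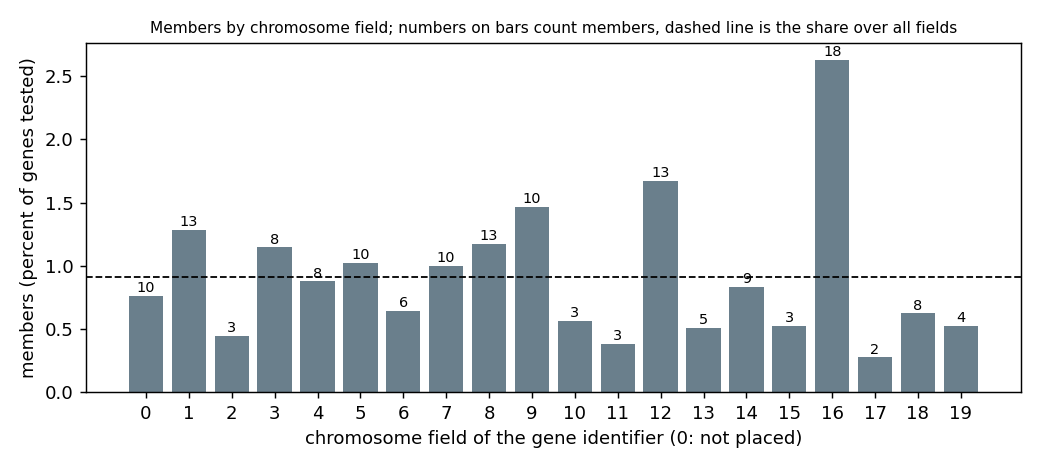
Percent of the genes tested that were members, by the chromosome field of the identifier (0 for genes without a chromosome), with the number of members above each bar. The dashed line marks 0.909%, the share over all fields, and chromosome 16 stands highest with 18 members and 2.63%. Some of these 18 are neighbours in a run.

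The members spread more between the Victoria libraries than between those of the other cultivars. The median SD of log2(FPKM + 1) over the 3 Victoria libraries was 0.49 for the members and 0.24 for all genes tested, and 12.4% of the members (21) had an SD of at least 1 there, against 3.01% of all genes. The medians were 0.35 and 0.24 in Midknight Beauty, 0.33 and 0.23 in Centennial Seedless, 0.15 and 0.14 in Shine muscat, and 0.22 and 0.27 in Summer Black. The part that the level of a gene has in its SD on this scale was not tested. The median member stood at a log2(FPKM + 1) of 2.39 in the lowest Victoria library and 3.04 in the highest. The rule found 225 genes without Victoria replicate 1 and 168 without Victoria replicate 3.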

How the data were processed

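Skin RNA of 5 cultivars was sequenced in 3 libraries each. The authors deposited 1 table of FPKM values for 31924 genes (29927 reference identifiers and 1997 newly assembled). The submitters' processing notes name HISAT2 and StringTie, whereas the methods of the paper name Bowtie2 and RSEM. Where the reads of a gene map poorly to the Vitis vinifera reference, the FPKM of that gene is lowered. A low mapped share of a whole library need not lower its values, since FPKM are scaled to mapped fragments. FPKM were used as deposited, without counts. The thresholds for calls follow the methods of the paper.

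Genes with FPKM of at least 1 in at least 3 libraries (18238) were fitted on log2(FPKM + 1), which understates changes of low genes, with limma 3.58.1 in R 4.3.3 (1 fit of 5 cultivars, eBayes with trend, Benjamini-Hochberg adjustment over the 18238 genes). The fit was tested on simulated data in which only well expressed genes were changed, so that test does not cover calls of low genes. Tables were made with pandas 2.3.3 and numpy 2.4.6 in Python 3.11.15 and drawn with matplotlib 3.10.9. The members, lists and comparisons were chosen with earlier results of these data known.

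Named members were the 10 with the largest difference, the 10 with the highest mean in the 9 libraries, the 2 on each side of the threshold, those the paper lists, the 3 called with the largest change in each direction of a comparison, those in the longest runs and those at 0 in the 6 libraries. A count by product class was not made, since 0 of the identifiers matched the 29591 genes of the reference list. The primers come from the supplement of the paper. Same-numbered libraries were checked for pairing by the correlation of their deviations from the cultivar means over all genes tested. Of the groups compared, Midknight Beauty and Centennial Seedless alone had an r above 0.1 in all 3 numbers (0.59, 0.60 and 0.22). By this measure, not by the labels, their numbers were read as pairs. Midknight Beauty and Victoria came close (0.01, 0.53 and 0.56) but were given no block of their own. Over the members r was 0.31, 0.55 and -0.25 for Midknight Beauty and Centennial Seedless. For Midknight Beauty and Victoria it was 0.30, 0.25 and 0.65 there, so the pairing is not settled. Over all genes tested r was -0.06, -0.22 and -0.08 for Shine muscat and Summer Black, and -0.27, 0.53 and -0.16 for Centennial Seedless and Victoria. The alternatives were another pseudocount, filter, scaling, threshold or variance model, separate fits, a replicate block and leaving out libraries.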

Additional observations from a re-analysis of the deposited data

How the results depend on the processing

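The direction of the 24 named differences was kept under all 577 alternatives run for them, and 100 of these lost the call. Most of these alternatives could not change a direction. Leaving out a library of another cultivar, the filter, the threshold, the variance model, separate fits and the replicate block do not alter the log2 difference of a gene. The genes were also picked for large differences, so nothing is read from the kept directions. The counts of called members are given in the order Summer Black against Shine muscat, Midknight Beauty against Victoria, Centennial Seedless against Victoria, and Midknight Beauty against Centennial Seedless (11, 6, 8 and 13 as reported). They were 27, 3, 7 and 5 with a pseudocount of 0.1, 10, 4, 4 and 6 with a filter at 5 FPKM, 9, 2, 1 and 1 with separate fits of 2 cultivars, and 6, 3, 2 and 1 at a log2 fold change of 2 and an adjusted p of 0.01. Leaving out 1 library at a time gave 8 to 13, 5 to 12, 3 to 12 and 5 to 14, with 3 for Centennial Seedless against Victoria without Centennial Seedless replicate 1, and 12 for both comparisons with Victoria without Victoria replicate 1. Without Shine muscat replicate 1 and Summer Black replicate 3, an alternative chosen after seeing the data, the first count was 7. No filter, median-of-ratios scaling, quantile normalization and no variance trend kept each count within 1.5 times. With the replicate block the counts were 13, 6, 9 and 12. With a replicate block for the Midknight Beauty and Centennial Seedless libraries alone, also chosen after seeing the data, the last count was 15. Beside the calls named in the report, the block over all cultivars ended that of VIT_04s0210g00080 in Midknight Beauty against Victoria (adjusted p 0.00528). The cause of these changes was not tested, except that the filter tests fewer members (111).

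The number of members was 211 with a pseudocount of 0.1, 111 with a filter at 5 FPKM, 184 with median-of-ratios scaling, 151 with quantile normalization, 41 at a difference of at least 2 and 264 with no threshold on the difference. Leaving out 1 library gave 168 to 225, and of the 169 members 132 were shared under quantile normalization and 164 under median-of-ratios scaling. The reads behind a single value are unknown, so values near 0 are the least certain.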
